A study of Mus musculus with 16 samples.

Results

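Myc chromatin immunoprecipitation followed by sequencing (ChIP-seq) in mouse spleen T cells was compared between 14 h and 4 h of concanavalin A (ConA). These are 4 of the 16 libraries of a series on Myc in lymphocytes, chosen by cell type and time from their labels, with 1 ChIP and 1 IgG library at each time. Both groups were T cells in culture with ConA at 7.5 µg/ml. The cell-type label of both reads resting T cells. Per the labels, Myc was precipitated with an antibody against EGFP, and the control was a non-specific IgG. The strain, the age of the animals, the EGFP-Myc allele of each sample and any pooling of animals are not given in the labels of these libraries. With 1 library of each kind at each time, no test between times was possible, and every interval below is a 95% interval that covers counting error only.

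Myc is a transcription factor that binds DNA as a dimer with Max, most often at E-box motifs in promoters that are already open and transcribed. ConA is a plant lectin that crosslinks surface glycoproteins and activates T cells. Activated T cells induce Myc within hours, grow, and later enter the cell cycle. In ChIP-seq, sites occupied by Myc hold more reads than the same sites in the IgG control.

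The antibody labels of the 14 h pair conflict. The file of one library is named GFP-myc while its title says IgG, and the file of the other is named IgG while its title says Myc. The values below take the library named GFP-myc as ChIP, called the 14 h GFP-myc library, and the library named IgG as its control, called the 14 h IgG library. By title, ChIP and control of the 14 h pair exchange places. Over a fixed set of bins, a 14 h fold against the 14 h control then becomes its inverse and the log2 enrichment changes sign. Folds against the 4 h control do not follow this rule, and the bins called at 14 h change. Counts by title are given for the main calls. The 4 h titles and file names give the same antibodies.

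The 14 h GFP-myc library held 3171032 reads on chromosomes 1 to 19 and the 14 h IgG library held 2341439. The 4 h Myc library held 4429042 reads and the 4 h IgG library held 1774572. All were thinned at random to 1774572 reads, so that 1 read equals 0.564 RPM, the reads in a bin scaled to 1000000 reads of its library. The pairs also differed in ways their antibodies do not give. The distance between reads of opposite strands was 155 bases in the 14 h GFP-myc library and 165 in the 14 h IgG library, against 90 in the 4 h Myc library and 105 in the 4 h IgG library. Reads on chromosome X, as a percentage of those on chromosome 3, came to 40.01% and 46.7% at 14 h, against 52.2% and 57.5% at 4 h, ChIP first. Any 2 of the 4 libraries shared between 0.266% and 0.686% of the positions of the smaller one. The file names of the pairs carry different codes that the labels do not explain, so time and preparation cannot be told apart. Without an annotation of the files' build, mouse mm8, neither gene names nor a check of the cell type by its marker genes could be given.

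The first question was how much Myc signal each time had at places chosen without the T cell libraries. For this, 830 bins of 500 bp were taken from B cells treated with lipopolysaccharide (LPS) for 4 h. In these bins the RPM of 2 summed Myc libraries exceeded that of 3 summed IgG libraries at least 4-fold, with 0.5 RPM added to each. The LPS dose was 25 µg/ml, and 1 of the IgG libraries, like the B cell Pol2 library used further on, is marked wt in its title. Both T cell ChIP libraries were concentrated in these B cell Myc bins. The 14 h GFP-myc library had 5101 of its thinned reads there (0.287%, interval 0.280 to 0.295), and the 14 h IgG library had 478 (0.0269%, interval 0.0246 to 0.0295). At 4 h the Myc library had 3487 (0.196%, interval 0.190 to 0.203) and the IgG library had 925 (0.0521%, interval 0.0488 to 0.0556). Per bin this was 3.46 RPM in 14 h GFP-myc and 0.325 RPM in 14 h IgG, against 2.37 RPM in 4 h Myc and 0.628 RPM in 4 h IgG. The mean bin of the genome had 0.203 RPM, so the bins stood 17.1-fold and 1.60-fold above it at 14 h and 11.7-fold and 3.09-fold at 4 h, ChIP first.

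**Figure D1:**
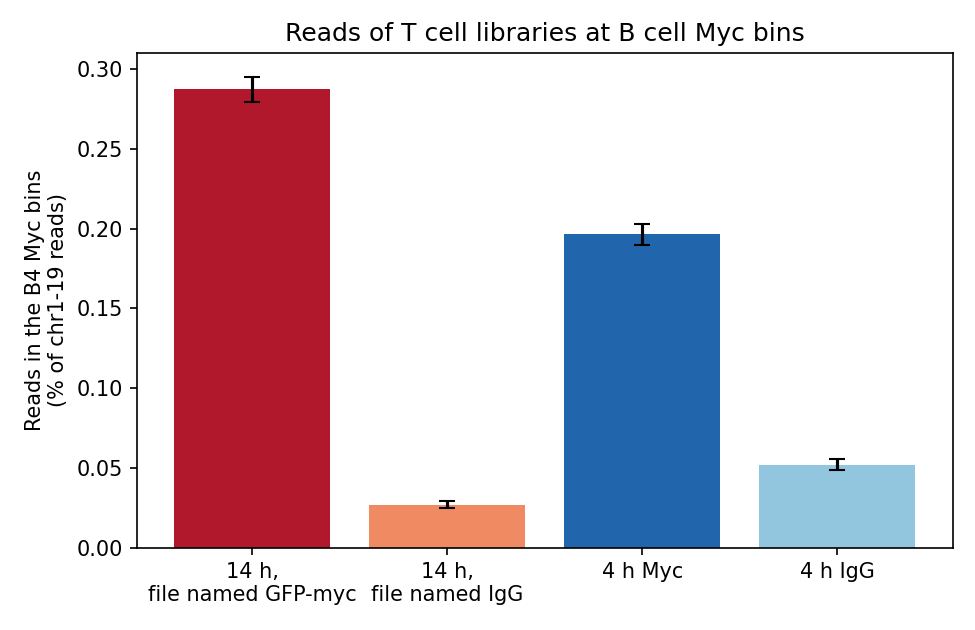
Thinned reads in the 830 B cell Myc bins as a percentage of all thinned reads of the library, 1 bar per library with its 95% counting interval. The 14 h bars stand at 0.287% (file named GFP-myc) and 0.0269% (file named IgG), and the 4 h bars at 0.196% (Myc) and 0.0521% (IgG).

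As a fold of summed ChIP over summed IgG reads, enrichment was 10.7 at 14 h (interval 9.71 to 11.7) and 3.77 at 4 h (interval 3.51 to 4.06). The fold at 14 h was thus 2.83 times that at 4 h (interval 2.51 to 3.19). Both sides of the fold contributed. The 14 h GFP-myc library had 1.46 times the reads of the 4 h Myc library (interval 1.40 to 1.53), while the 14 h IgG library had 0.517 times the reads of the 4 h IgG library (interval 0.462 to 0.578). When the IgG libraries were exchanged between times, the fold was 5.51 for 14 h GFP-myc and 7.29 for 4 h Myc, and the order of the times turned round (0.756). The higher fold at 14 h therefore rests on the control as well as on the ChIP, and what set the control levels was not tested. The share of cells with Myc bound and the amount bound per cell cannot be told apart in either library.

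Bin by bin the shift was broad and small. The median B cell Myc bin held 5 reads in 14 h GFP-myc and 0 in 14 h IgG, against 4 in 4 h Myc and 1 in 4 h IgG. The 14 h GFP-myc library had more reads than the 4 h Myc library in 59.8% of the 830 bins, fewer in 26.9% and the same number in 13.4%. Bins with 8 or more reads numbered 250 in 14 h GFP-myc, 0 in 14 h IgG, 118 in 4 h Myc and 1 in 4 h IgG. In the whole genome 990, 190, 529 and 302 bins reached 8 reads in the same libraries. B cell Myc bins thus made up 25.3% of such bins in 14 h GFP-myc and 22.3% in 4 h Myc. The median log2 enrichment, with 0.5 RPM added to ChIP and control, was 2.13 at 14 h (interval 2.13 to 2.39) and 1.37 at 4 h (interval 1.09 to 1.61). With every count under 3 reads, ChIP or control, set to 3 these medians were 0.74 at 14 h and 0.32 at 4 h. The median difference, 14 h minus 4 h, was 0.79 (interval 0.66 to 1.01). It was 0 with the IgG libraries exchanged.

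**Figure D2:**
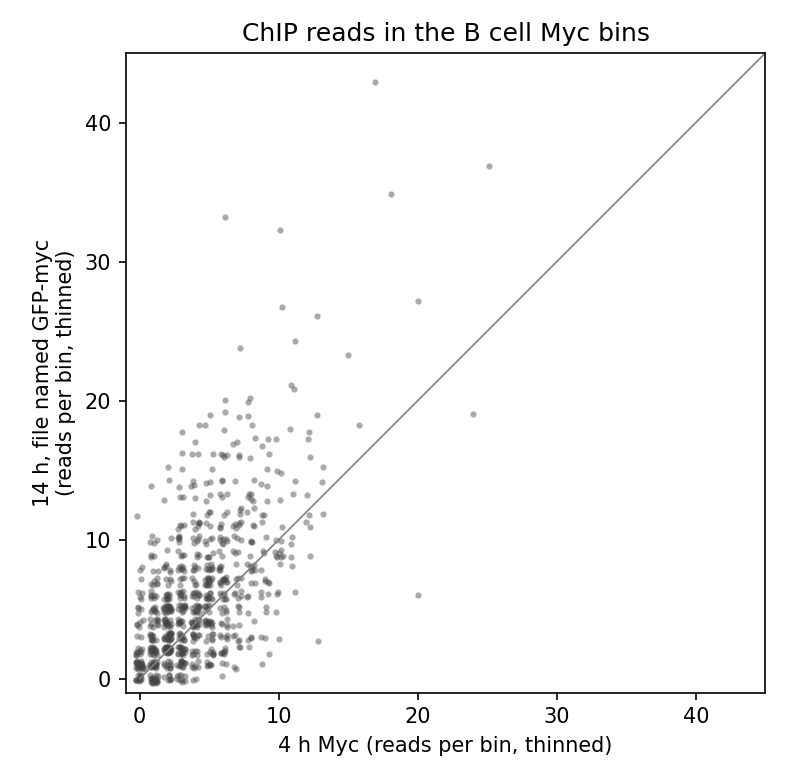
Thinned reads per bin in the 830 B cell Myc bins, 14 h GFP-myc on the y axis and 4 h Myc on the x axis, 1 point per bin with slight jitter, and a line of equal reads. In 59.8% of bins the 14 h count was higher and in 26.9% the 4 h count was higher.

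The bins with more Myc reads in B cells had higher folds in T cells at both times. In the 289 bins with up to 16 B cell Myc reads the fold was 5.95 at 14 h and 2.36 at 4 h. In the 275 bins with up to 24 reads it was 9.36 at 14 h and 3.20 at 4 h, and in the 266 bins above that 16.4 at 14 h and 5.80 at 4 h. The ratio of the 14 h fold to the 4 h fold was 2.52, 2.93 and 2.82 in these groups, fewest reads first, with intervals that overlapped. The ChIP reads alone had ratios of 1.28, 1.45 and 1.54 in the same order.

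Signal at both times was centred on the B cell summits. Over 778 B cell Myc sites, reads within 200 bases of the summit came to 4770 in 14 h GFP-myc and 380 in 14 h IgG, against 3170 in 4 h Myc and 730 in 4 h IgG. Per 100 bp, the centre exceeded the flank at 1500 to 2000 bases 13.4-fold in 14 h GFP-myc and 1.64-fold in 14 h IgG, against 7.45-fold in 4 h Myc and 2.37-fold in 4 h IgG. At 500 to 1000 bases from the summit the ChIP libraries had 1746 reads at 14 h and 1750 at 4 h, and at 1500 to 2000 bases 888 at 14 h and 1064 at 4 h, so the 14 h library had the higher count near the summit and not in the flanks. At 500 to 1000 bases the IgG libraries had 653 reads at 14 h and 1154 at 4 h, and at 1500 to 2000 bases 580 and 771. The 4 h excess in IgG thus extended beyond the centre.

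**Figure D3:**
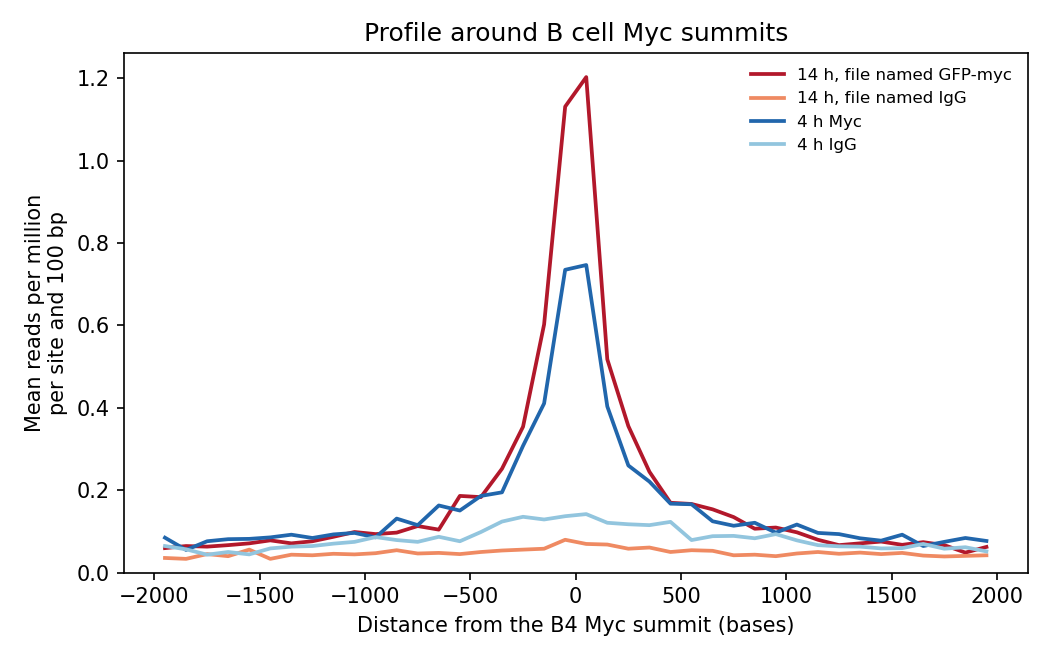
Mean RPM per site and 100 bp against distance from the summit of 778 B cell Myc sites, 1 line per T cell library. The 14 h GFP-myc line is the highest at the centre, 4 h Myc is next, and at 500 to 1000 bases the sums are 1746 reads in 14 h GFP-myc and 1750 in 4 h Myc. At 1500 to 2000 bases 14 h GFP-myc has 888 reads and 4 h Myc 1064.

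RNA polymerase II (Pol2), the enzyme that transcribes protein-coding genes, was profiled in the LPS-treated B cells, and its reads were used to rank bins. Bins with at least 10 Pol2 reads were cut into 10 groups of rising Pol2 reads, and bins of piled-up control reads were then left out of the groups. The T cell fold was higher at the high end of these groups than at the low end at both times. In the lowest group it was 2.45 at 14 h and 1.42 at 4 h, and in the highest group 5.93 at 14 h and 2.27 at 4 h. B cell Myc bins made up 0.238% of the lowest group and 11.5% of the highest, so this ranking overlaps with the choice by Myc. The ratio of the 14 h fold to the 4 h fold was 1.73 (interval 1.59 to 1.88) in the lowest group and 2.61 (interval 2.44 to 2.79) in the highest. The ChIP reads at 14 h were 0.933 times those at 4 h in the lowest group and 1.31 times in the highest. The IgG reads at 14 h were 0.465 to 0.558 times those at 4 h across all 10 groups.

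**Figure D4:**
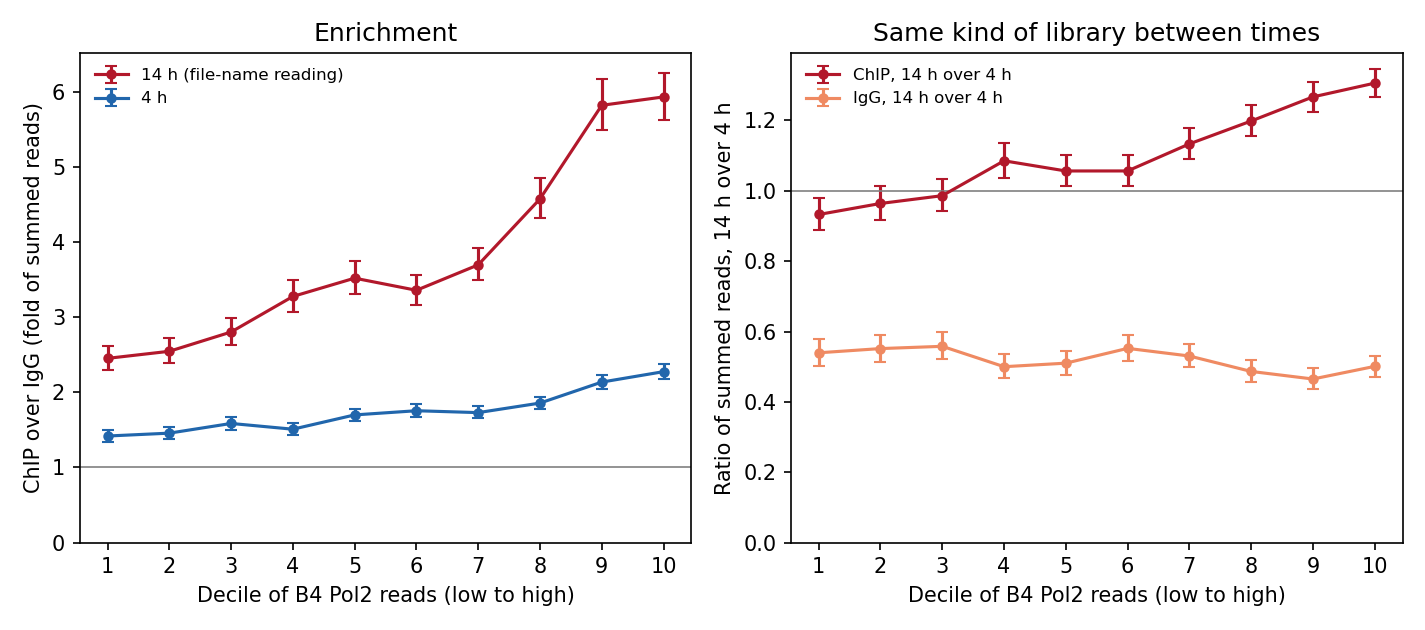
Left, fold of summed ChIP over summed IgG reads in T cells, and right, ratio of summed reads at 14 h over 4 h for ChIP and for IgG, against the group of B cell Pol2 reads, lowest to highest, without bins of piled-up control reads and with 95% counting intervals. In the highest group the fold is 5.93 at 14 h and 2.27 at 4 h, and the ChIP line on the right reaches 1.31 while the IgG line stays between 0.465 and 0.558.

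The piled-up bins had 40 or more IgG reads at either time. There were 41 of them, with or without Pol2 reads, and 19 fell in the highest Pol2 group. All 41 held 1842 reads in 14 h GFP-myc and 2223 in 14 h IgG, against 1574 in 4 h Myc and 5135 in 4 h IgG. With them kept, the highest Pol2 group had a fold of 3.62 at 14 h and 1.18 at 4 h. That these folds are lower follows in part from choosing the piled-up bins by their IgG reads. All bins at or above the limit of that group, ties included and piled-up bins kept, had folds of 3.69 and 1.20. Without the B cell Myc bins among them the folds were 3.08 at 14 h and 1.02 at 4 h.

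Bins were next called in the T cell libraries themselves. Of 4925477 bins, 2566 had at least 12 thinned reads summed over the 4 libraries. A bin was called when ChIP exceeded IgG at least 4-fold, with 0.5 RPM added to each, and ChIP held at least 8 reads. At 14 h 585 bins were called (22.8% of those examined), and at 4 h 174 (6.78%). With ChIP and control exchanged, 15 bins passed at 14 h (0.585%), which is also the count of the reading by title, and 32 passed at 4 h (1.25%). With all reads in place of thinned reads 424 bins were called at 14 h and 71 at 4 h. The set of bins examined also changed there, and its size is not given. With the IgG libraries exchanged between times 456 were called at 14 h and 260 at 4 h.

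Both times called 76 bins, which were 13.0% of the 14 h bins (interval 10.4 to 15.99) and 43.7% of the 4 h bins (interval 36.2 to 51.4). The 4 h share was 76.1% with all reads. Most bins called at one time leaned the same way at the other. Of the 14 h bins, 68.0% were at least 2-fold enriched at 4 h, against 44.8% of all bins examined. Of the 4 h bins, 90.8% were at least 2-fold enriched at 14 h, against 67.0% of all bins examined. With 0.5 RPM added, 1 ChIP read over 0 IgG reads already passes 2-fold (log2 1.09). The 4 h IgG count was 0 in 205 of the 585 bins called at 14 h and 447 of the 2566 examined. The 14 h IgG count was 0 in 115 of the 174 bins called at 4 h and 952 of the 2566 examined. In the 509 bins called at 14 h and not at 4 h, the 4 h fold was still 2.77 (interval 2.55 to 3.0). In the 98 bins called at 4 h and not at 14 h, the 14 h fold was 5.53 (interval 4.41 to 7.01). The 1883 bins called at neither time had folds of 1.66 at 14 h and 0.827 at 4 h. They included all 41 piled-up bins, which held 1574 reads in 4 h Myc and 5135 in 4 h IgG. Leaving the piled-up bins out raised the fold of all bins examined from 2.51 to 3.21 at 14 h. At 4 h it raised that fold from 1.06 to 1.49. Both rises follow in part from choosing these bins by their IgG reads. The requirement of 12 summed reads favours bins that are high in any library, so these folds describe the bins examined and not the genome.

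The bins called at both times were those most like B cell Myc bins. Of these 76, 77.6% were B cell Myc bins, against 30.5% of the bins called at 14 h alone, 19.4% of those called at 4 h alone and 7.17% of those called at neither time. Their median B cell Pol2 count was 44.5 reads, against 33 for 14 h alone, 29 for 4 h alone and 17 for neither. At least 10 Pol2 reads were present in 95.2% of all 14 h bins and 91.95% of all 4 h bins, against 71.7% of the bins examined. Called bins stood mostly alone: 552 sites at 14 h, 522 of them a single bin, and 171 sites at 4 h, 168 of them a single bin. Chromosome 11 held 12.6% of the 14 h bins and 13.8% of the 4 h bins, against 13.9% of the bins examined, 10.96% of B cell Myc bins and 4.95% of all bins, so its share of calls was not above its share of the bins that could be called.

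Setting the enrichments against each other, 637 bins were at least 4-fold higher at 14 h (24.8% of those examined) and 90 were at least 4-fold lower (3.51%). Of the 637, 579 had more ChIP reads at 14 h and 615 had fewer IgG reads at 14 h. Their summed 4 h fold was 0.586, so the 4 h control exceeded the 4 h ChIP there. In the 90 lower bins the summed 14 h fold was 0.666. Both values follow in part from the choice of the bins. Without IgG, 98 bins were higher and 56 lower. By title the counts were 104 higher (4.05%) and 1466 lower (57.1%), and with the IgG libraries exchanged 183 higher and 338 lower. Counting error was large for single bins. With all reads, the interval of the ratio lay above 1 at 198 of the 637 higher bins and below 1 at 5 of the 90 lower bins. The 4-fold difference held with all reads at 476 of the higher bins and 40 of the lower ones. All reads include the thinned reads that chose the bins, so these counts are a description.

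Sites are named by mm8 position, since no gene names of that build were at hand. Touching called bins were merged into 644 sites, and 86 of them had a bin with at least 24 summed reads. Of these, 81 were called at 14 h, 37 at 4 h and 32 at both. The enrichment was higher at 14 h in 74 of the 86, by over 4-fold in 33, and lower by over 4-fold in 0. The 14 h GFP-myc library had more ChIP reads than 4 h Myc in 75. Since most of the 86 entered through the 14 h call, these counts follow in large part from that choice and are given as a description.

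Of the sites high at both times, the highest, chr5:142620001-142620500, had 37 thinned reads in 14 h GFP-myc and 0 in 14 h IgG, against 25 in 4 h Myc and 0 in 4 h IgG. Taking 3 reads as the most that a count of 0 allows in a library, this is at least 12.3-fold at 14 h and at least 8.33-fold at 4 h. It was also the B cell Myc bin with the most Myc reads, 47 in each of the 2 B cell libraries. The site chr11:59862501-59863000 had 43 and 0 reads at 14 h, against 17 and 0 at 4 h, ChIP first. That is at least 14.3-fold at 14 h and at least 5.67-fold at 4 h, and the ChIP reads alone were 2.53 times higher at 14 h (interval 1.41 to 4.73). The site chr6:86492001-86492500 had 35 and 0 reads at 14 h and 18 and 0 at 4 h. All 8 sites chosen for a high value at both times were B cell Myc bins. They had 0 thinned IgG reads at both times, which follows in part from their choice. With all reads, chr10:79257001-79257500 and chr7:121858001-121858500 each had 1 IgG read at 14 h. More thinned ChIP reads were present at 14 h than at 4 h in 7 of the 8. The exception was chr10:79257001-79257500, with 12 thinned ChIP reads at 14 h and 13 at 4 h. With all reads that site had 5.68 RPM in 14 h GFP-myc and 4.52 RPM in 4 h Myc.

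The sites chosen for the largest difference were led by chr8:126907001-126907500, where there were 33 thinned reads in 14 h GFP-myc and 0 in 14 h IgG, against 6 in 4 h Myc and 4 in 4 h IgG. With all reads this was 17.0 RPM and 0 RPM at 14 h, against 6.77 RPM and 2.25 RPM at 4 h. The thinning had kept 6 of the 30 reads of the 4 h Myc library there. At chr4:151127001-151127500 the all-read values were 10.4 and 0 RPM at 14 h, against 2.26 and 2.82 RPM at 4 h, so the 4 h library held no excess over its control. Of the 8 sites, 5 were B cell Myc bins and 7 had 0 thinned IgG reads at 14 h, which follows in part from their choice. Even among them, the interval of the ratio with all reads reached below 1 at chr7:45586001-45586500, with a lower bound of 0.451.

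The sites chosen for the smallest difference were those with the most negative log2 difference, 14 h minus 4 h. It ran from -1.69 to -0.66 over the 8, so their enrichment was lower at 14 h. They had more ChIP than IgG reads at both times. All 8 were called at 4 h, which follows in part from their choice. Not all were called at 14 h, and chr2:129965501-129966000 was among those not called. It was 4-fold in reads at 14 h, but its log2 enrichment with 0.5 RPM added was 1.79, under the limit. At chr2:129965501-129966000 there were 16 thinned reads in 14 h GFP-myc and 4 in 14 h IgG, against 9 in 4 h Myc and 0 in 4 h IgG. At chr5:149494501-149495000 there were 16 and 1 at 14 h, against 12 and 0 at 4 h. Of these 8 sites, 7 had more ChIP reads at 14 h and 6 had 0 IgG reads at 4 h. The site chr8:109100001-109100500 had 10 and 2 thinned reads at 14 h, against 11 and 1 at 4 h. At chr11:3092501-3093000 there were 22 and 8 at 14 h, against 19 and 4 at 4 h. The interval of the ratio lay below 1 at 0 of the 8.

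**Figure D5:**
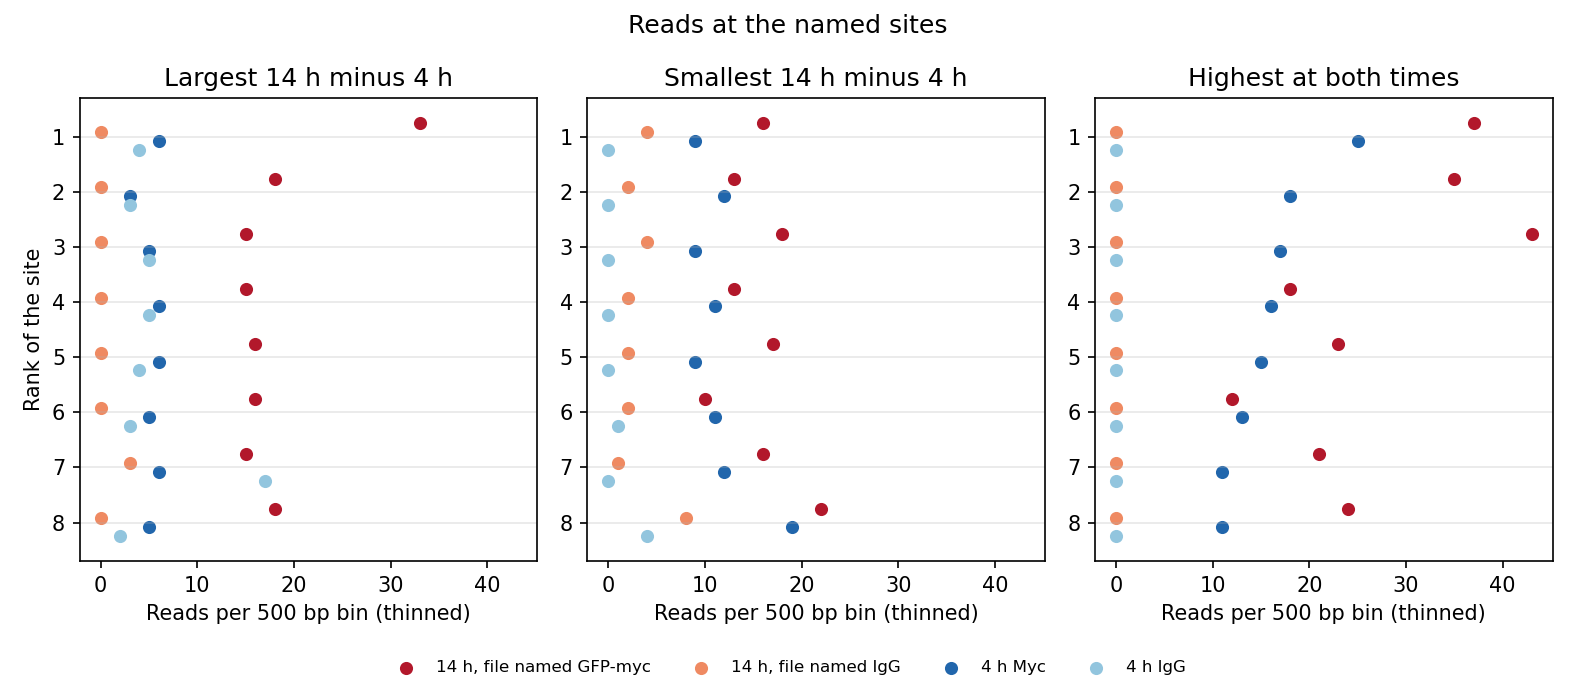
Thinned reads of the 4 T cell libraries at the 8 sites with the largest difference, the 8 with the smallest and the 8 with the highest value at both times, by rank. The difference is 14 h minus 4 h, so the smallest are the most negative, with lower enrichment at 14 h. The sites high at both times have 0 thinned reads in both controls, in part because of their choice. Among them chr11:59862501-59863000 has the most reads, 43 in 14 h GFP-myc.

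Among the 5 bins with the most Myc reads in B cells, the 14 h GFP-myc library had more reads than 4 h Myc at each. The interval of the ChIP ratio lay above 1 at chr11:59862501-59863000 and at chr1:88189501-88190000, where there were 32 and 2 reads at 14 h, against 10 and 2 at 4 h, a ChIP ratio of 3.20 (interval 1.53 to 7.30). At chr11:102005501-102006000 there were 17 and 0 reads at 14 h, against 12 and 1 at 4 h. At chr9:20628501-20629000 there were 18 and 0 at 14 h, against 11 and 1 at 4 h, and at both of these bins the interval of the ChIP ratio included 1.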

How the data were processed

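The authors deposited aligned reads, each with its position, length and strand, and the read positions are the only values used here; they are neither counts nor normalised signal. CASAVA 1.0, Bowtie 0.12.7 and build mm8 were used, per the submitters' processing notes. Whether positions count from 0 or 1 is not stated, so coordinates may be off by 1 base. Reads sharing a strand and 5′ end were reduced to 1, which removed 0% in the 4 T cell libraries. Reads were moved inward by 0.5 of the strand distance, thinned to 1774572 per library (seed 1) and counted in 500 bp bins on chromosomes 1 to 19. RPM is per 1000000 of these reads. Log2 ratios had 0.5 RPM added. B cell Myc bins needed 4-fold, also with 0.5 RPM added, and 10 Myc reads. Folds have exact binomial intervals, ratios of folds exact conditional odds-ratio intervals, shares Clopper-Pearson intervals and medians order-statistic intervals, all at 95%. They treat reads, which carry no molecular identifiers, as independent. Steps were tested on simulated data. Named sites were the 8 with the largest and smallest difference and the highest lower value of both times, among sites with at least 24 summed reads, and the 5 B cell bins with most Myc reads. The difference is signed, 14 h minus 4 h, so the smallest are the most negative. The members, bins, rules and thresholds were chosen with earlier results of these data known. Alternatives covered bins, thresholds, pseudocount, depth, control and labels. Python 3.11.15, numpy 2.4.6, pandas 2.3.3 and scipy 1.17.1 were used.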

Additional observations from a re-analysis of the deposited data

Results flagged for a closer look

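Read by title, the 14 h fold of Myc over IgG at the B cell Myc bins was 0.0937, below 1, while the 4 h fold was 3.77, above 1. The pair of values point opposite ways, and the difference was not tested because each time has 1 library of each kind. By file name the 14 h fold was 10.7. The labels do not settle which reading holds.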

How the results depend on the processing

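Over 232 recomputed values under 21 settings, 148 stayed within the tolerance used, 79 moved past it and 5 turned round. The tolerance was 1.5 times for a count of bins and the 95% counting interval of the main value for folds, medians and shares. Those that turned round were the 14 h fold (0.0937), the 14 h median log2 enrichment (-2.13), the median difference (-3.40) and the ratio of folds (0.0249) by title, and the ratio of folds with the IgG libraries exchanged (0.756). In what follows, counts are of bins called at 14 h, called at 4 h, higher at 14 h and lower at 14 h, and shares are of 14 h bins also called at 4 h and of 4 h bins also called at 14 h. Changes to bin width or position, minimum reads, depth, random draw or read shift also changed the set of bins examined. The size of that set is not given for them, so their counts cannot be read as shares of the bins examined.

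By title there were 15 bins called at 14 h, 104 higher and 1466 lower, with shares of 0% and 0%. Without IgG there were 885 and 500 called, 98 higher and 56 lower, a median difference of 0.42, a 4 h median of 1.97, a ratio of folds of 1.46 and shares of 31.98% and 56.6%. With IgG exchanged, chosen after seeing the data, there were 456 and 260 called, 183 higher and 338 lower, folds of 5.51 at 14 h and 7.29 at 4 h, medians of 1.70 and 1.70, a difference of 0, and shares of 18.4% and 32.3%. Bins of 250 bp gave 259 and 63 called, 204 higher, 31 lower, folds of 14.4 and 5.08 and a difference of 0.61. Bins of 1000 bp gave 1216 and 425 called, 2027 higher, 612 lower, folds of 7.52 and 3.09, a 14 h median of 1.94, a ratio of 2.44 and a share of 35.8% of 4 h bins. A minimum of 24 reads gave 82 and 38 called, 61 higher, 3 lower and shares of 40.2% and 86.8%. A minimum of 6 gave 13764 higher and 9168 lower, out of a larger set of bins examined. All reads gave 424 and 71 called, 441 higher, 21 lower and a share of 76.1% of 4 h bins. A 2-fold threshold gave 304 called at 4 h, 1236 higher, 306 lower and a share of 18.0% of 14 h bins. An 8-fold one gave 103 called at 4 h, 242 higher, 21 lower and shares of 8.24% and 35.0%. A pseudocount of 0.1 RPM gave 990 higher, 260 lower, medians of 3.62 and 2.08 and a difference of 1.21. One of 1 RPM gave 356 higher, 38 lower, medians of 1.66 and 1.06 and a difference of 0.61. Bins from B cell Myc replicate 1 alone gave a 14 h fold of 9.52 and a difference of 0.66, and from replicate 2 alone a 14 h median of 2.46. Taking the bins at or above the limit of the highest Pol2 group, ties included, in place of the B cell Myc bins gave folds of 3.69 and 1.20, medians of 1.70 and 1.03 and a difference of 0.61. Unshifted reads gave a difference of 0.66, and bins moved by 250 bp a share of 51.4% of 4 h bins. The cause of these moves was not tested. Another random draw, reads kept in full, scaling by background bins and leaving out piled-up bins moved none of the 12 results past this tolerance, although another draw gave 603 higher bins in place of 637 and a share of 50% of 4 h bins in place of 43.7%, and reads kept in full gave a 4 h median of 1.13 in place of 1.37.

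No paired analysis was possible because each group has 1 library. Leaving out a library was not possible for the same reason. A bin with 0 thinned reads allows up to 3 reads, or 1.69 RPM, so low sites at either time were not detectable at this depth.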
